A study of Homo sapiens with 6 samples.

Results

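The genes that carry glucose into the cell, break it down to pyruvate and carry lactate out were examined in SKOV3 cells, an established human ovarian cancer cell line, after silencing of KLF5, a zinc finger transcription factor that binds GC-rich DNA. The group was chosen by gene symbol from the protein-coding rows of the deposited table and holds 48 of its 29185 genes. It consists of the 13 listed members of the SLC2A family of glucose and polyol transporters, the 13 listed members of the SLC16A family of monocarboxylate transporters, and 22 enzymes of glycolysis, its control and its exits to lactate and to mitochondria. Poly(A) RNA was sequenced from control cells (sh-NC, whose genotype is labelled WT, 3 libraries) and from cells labelled as KLF5 knockdown (sh-KLF5, 3 libraries). According to the methods, the knockdown sequence was cloned into the vector pLKO.1-EGFP-Puro and stable lines were obtained with puromycin. The labels name a single knockdown condition, and nothing in the labels says that the libraries of a group came from separate cultures, so that the p-values measure only the spread between these libraries.

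Glucose enters cells through facilitative transporters of the GLUT (SLC2A) family and is trapped by hexokinase as a phosphate ester. Phosphofructokinase commits it to glycolysis, a step tuned by the PFKFB enzymes that make and remove its activator. The payoff enzymes from GAPDH to PKM then yield ATP and pyruvate. Lactate dehydrogenase interconverts pyruvate and lactate, pyruvate dehydrogenase kinases hold pyruvate back from mitochondria, and the monocarboxylate transporters MCT1 (SLC16A1) and MCT4 (SLC16A3) move lactate across the plasma membrane. Many tumours run this route at high rate even when oxygen is present, and several of its genes are classical targets of hypoxia-inducible factors.

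The recovered library totals ranged from 15852319 to 17543896 reads, and 3 reads, the most that a count of 0 allows, corresponded to between 0.171 and 0.189 CPM (reads scaled to the library total; counting error only). KLF5 stood at 4371, 4425 and 4494 normalized counts in the sh-NC libraries and at 1745, 1440 and 1436 in sh-KLF5. Its log2 fold change was -1.53 (SE, the standard error, 0.12, adjusted p = 2.47e-07, limma with Benjamini-Hochberg adjustment over the 15803 genes tested). The libraries of a group differed by more than counting noise, most of all sh-KLF5 library 1, whose chi-square per degree of freedom was 23.5 and 30.4 against the other sh-KLF5 libraries, when the pairs without it gave between 4.33 and 10.4. Of the 9 markers of ovarian carcinoma epithelium, 8 were listed and tested, with KRT7, KRT8, KRT18, ERBB2, EPCAM and PAX8 present in every library. Of the 8, KRT7, KRT8, KRT18 and MUC16 were lower in sh-KLF5 by adjusted p, and KRT8 and MUC16 were called lower. The 8 markers summed to between 682 and 816 RPKM (reads per kilobase, scaled to the library total) in the sh-NC libraries and between 375 and 487 RPKM in sh-KLF5. Of 5 fibroblast markers, 3 were called lower (COL1A2, COL3A1 and DCN), and the list summed to between 11.0 and 16.4 RPKM in the sh-NC libraries and between 4.64 and 9.95 RPKM in sh-KLF5. Of 6 leukocyte markers 4 were listed, and the defining PTPRC, CD68 and LYZ had 2 reads or fewer in every library, whereas CD14 brought the list to between 4.83 and 7.25 RPKM in the sh-NC libraries and between 5.95 and 12.6 RPKM in sh-KLF5. The 3 endothelial markers summed to between 0.512 and 0.652 RPKM in the sh-NC libraries and between 0.254 and 0.574 RPKM in sh-KLF5. The part of these marker differences in the results that follow was not tested.

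Of the 48 genes, 41 had enough reads to be tested, and the other 7 (SLC2A2, SLC2A4, SLC2A5, SLC2A9, SLC2A14, SLC16A7 and SLC16A11) had at most 20 reads in any library. Calls were made at an adjusted p under 0.05 together with a change of more than 2-fold, that is, beyond 1 on the log2 scale in either direction. SLC16A6 and PFKFB4 were called higher in sh-KLF5, beside 1.9% of all genes tested. SLC2A3, PGK1 and ALDOC were called lower, beside 3.37% of all genes tested. Without the fold threshold, 7 members were higher (background 6.04%) and 4 were lower (background 6.85%), and 6 of these 11 differed by less than 2-fold. The higher members with smaller changes were SLC2A1, SLC16A3, HK2, LDHB and PFKM, and the lower one was PGAM1. The sh-KLF5 libraries lay wholly above the sh-NC libraries for 11 tested members (background 15.4%) and wholly below for 8 (background 15.9%). The median log2 fold change over the 41 tested members was -0.04, and over all genes tested it was -0.0023. The remaining 30 members did not pass, with log2 fold changes from -0.87 (SLC16A10) to 0.48 (SLC16A8). Leaving out sh-KLF5 library 1, which stood apart, 1 member was called higher and 3 were called lower, and 10 were higher and 5 lower by adjusted p alone. The background shares above belong to the fit with every library. No share over all genes is given for this smaller fit, so its counts cannot be read as particular to the members.

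**Figure D1:**
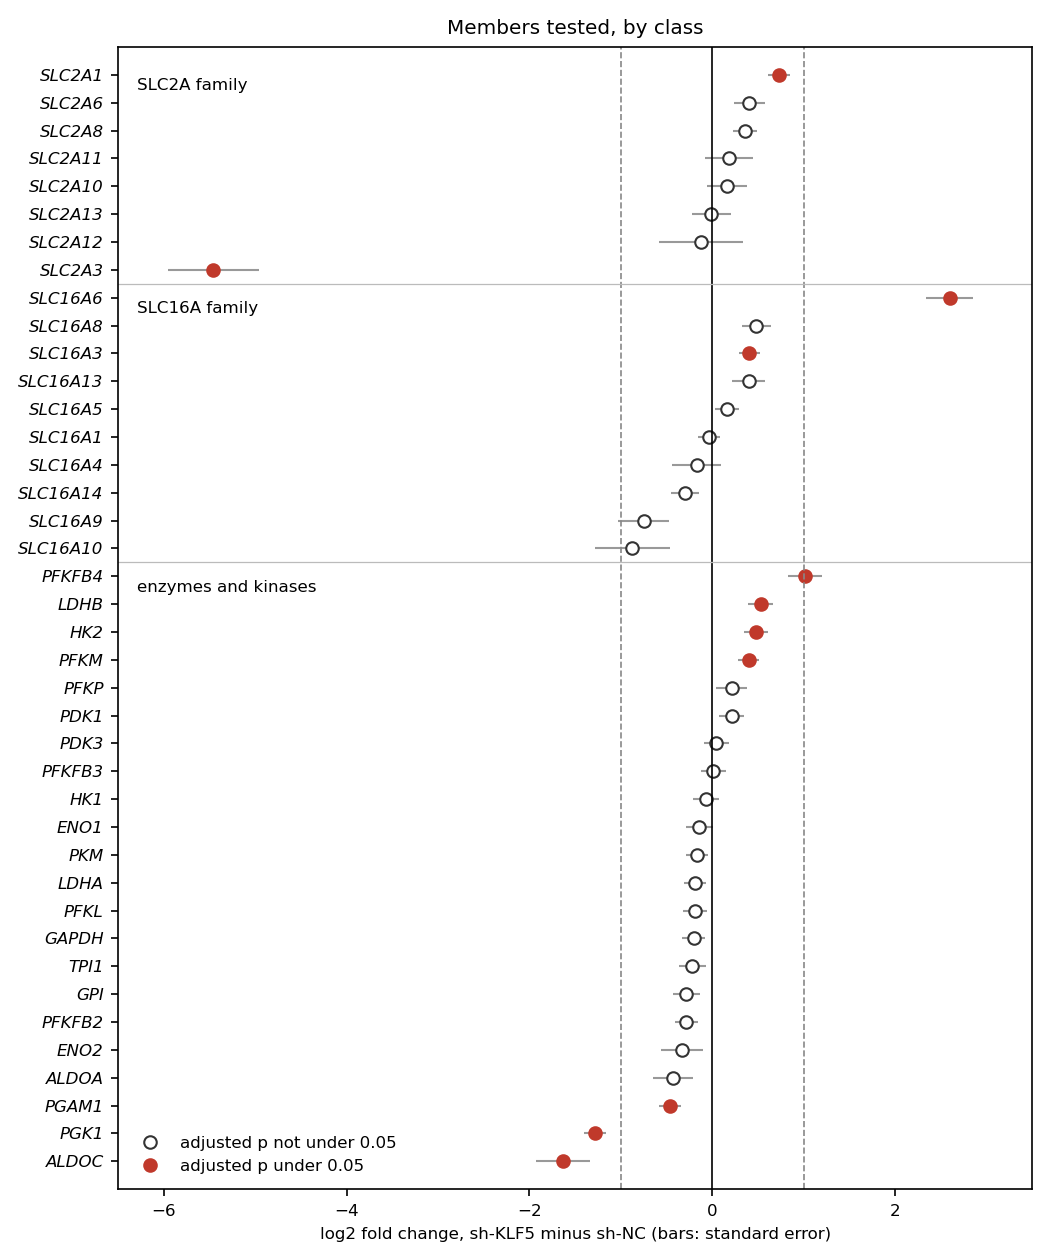
Log2 fold change of 40 of the 41 tested members (sh-KLF5 minus sh-NC, x axis, log2 of normalized count + 1), with bars for the standard error, arranged by class on the y axis. Filled points have an adjusted p under 0.05 and dashed lines mark log2 fold changes of -1 and 1; SLC2A3 (-5.46) and SLC16A6 (2.60) lie farthest out, and most enzymes sit near 0.

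Promoter windows (250 bases before to 50 after the start site) are shown for the lower members PGK1 and ALDOC and the higher members PFKFB4 and SLC2A1, as examples of members that passed the adjusted p in each direction. They were taken from RefSeq on GRCh38.p14, which held windows for 40 of the 48 members, and SLC2A3 and SLC16A6 were not among them. Each is written from 5′ to 3′ on the strand of the gene, and capitals mark ACGTG or GCGTG on either strand, the core letters known from hypoxia-inducible factor sites.
PGK1 promoter, chrX:78103998-78104297, + strand: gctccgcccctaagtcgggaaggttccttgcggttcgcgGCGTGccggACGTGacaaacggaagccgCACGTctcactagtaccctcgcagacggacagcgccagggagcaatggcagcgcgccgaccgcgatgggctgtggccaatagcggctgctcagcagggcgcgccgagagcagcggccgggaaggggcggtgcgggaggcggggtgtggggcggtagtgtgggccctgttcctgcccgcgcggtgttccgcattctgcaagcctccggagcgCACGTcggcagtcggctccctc
ALDOC promoter, chr17:28576846-28577145, - strand: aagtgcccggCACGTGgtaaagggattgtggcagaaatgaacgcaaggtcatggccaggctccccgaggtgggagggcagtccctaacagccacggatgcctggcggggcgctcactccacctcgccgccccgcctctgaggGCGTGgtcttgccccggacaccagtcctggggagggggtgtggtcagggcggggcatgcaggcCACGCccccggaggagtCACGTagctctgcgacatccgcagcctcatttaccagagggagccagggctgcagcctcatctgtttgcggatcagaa
PFKFB4 promoter, chr3:48556754-48557053, - strand: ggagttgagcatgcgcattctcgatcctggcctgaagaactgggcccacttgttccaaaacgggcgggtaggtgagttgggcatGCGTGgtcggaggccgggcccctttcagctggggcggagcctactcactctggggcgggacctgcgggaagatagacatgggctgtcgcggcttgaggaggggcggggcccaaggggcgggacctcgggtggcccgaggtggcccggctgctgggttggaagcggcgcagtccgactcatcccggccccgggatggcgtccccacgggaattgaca
SLC2A1 promoter, chr1:42958819-42959118, - strand: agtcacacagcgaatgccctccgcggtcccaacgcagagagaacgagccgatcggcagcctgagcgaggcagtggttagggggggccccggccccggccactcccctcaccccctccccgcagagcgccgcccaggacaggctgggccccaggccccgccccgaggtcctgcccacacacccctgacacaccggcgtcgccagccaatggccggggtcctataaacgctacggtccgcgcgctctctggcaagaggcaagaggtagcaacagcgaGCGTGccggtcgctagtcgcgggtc
The PGK1 window held 4 such cores and the ALDOC window 5, of which a pair overlap in a palindromic CACGTG. The PFKFB4 and SLC2A1 windows held 1 each. Among the other members, the windows of HK2, which was higher, held 3 and 6, and that of PGAM1, which was lower, held 0. For LDHA, which did not pass, 1 of the windows held 6. Letters of the kind bound by KLF proteins were present in all 4 windows: CACCC at 1 position in PGK1, ALDOC and PFKFB4 and at 2 in SLC2A1, and CCNCNCCC, which may overlap CACCC or GGGCGG, at 1 position in PGK1 and PFKFB4, 5 in ALDOC and 4 in SLC2A1. The 35116 windows searched left out those of 1 chromosome. Of the windows searched, 21.4% held ACGTG, 36.5% GCGTG, 7.26% CACGTG, 59.9% CACCC, 45.0% GGGCGG and 56.2% CCNCNCCC on either strand. Of the 71 windows of the members, 36.6%, 42.3%, 12.7%, 67.6%, 59.2% and 71.8% did. Some members had several windows, of which some overlap, so these are shares of windows and not of members. The matches are letters in a window and were not tested against the changes in expression.

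Among the glucose transporters, SLC2A3 was almost lost and SLC2A1 rose. SLC2A3 encodes GLUT3, a high-affinity glucose carrier best known from neurons, and lies on chromosome 12 of GRCh38 (7919230 to 7936275, - strand). Its reads were 104, 88 and 55 in the sh-NC libraries and 2, 1 and 0 in sh-KLF5, so that the groups were far apart. Summed per group these were 247 and 3 reads, a sh-NC to sh-KLF5 ratio of 81.7 after scaling (95% interval from counting error 27.6 to 399). The fitted log2 fold change was -5.46 (SE 0.50, adjusted p = 1.70e-06, limma), and as the sh-KLF5 group is near 0 it ran from -7.01 to -3.82 over the other settings. No exonic base of SLC2A3 overlaps another gene in GENCODE release 29. Its near-identical neighbour SLC2A14 (GLUT14) had at most 1 read in any library, and its pseudogenes SLC2A3P2 and SLC2A3P4 had at most 4.

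SLC2A1 encodes GLUT1, the basal glucose carrier of most cells. Its normalized counts were 1174, 1112 and 1367 in the sh-NC libraries and 1916, 2213 and 1912 in sh-KLF5. Every sh-KLF5 library was above every sh-NC library, and the sh-KLF5 mean of 2014 ± 173 (SD, n = 3) was 165% of the sh-NC mean of 1218 ± 133. The log2 fold change was 0.73 (SE 0.12, adjusted p = 0.000571, limma), under the 2-fold mark, and the adjusted p stayed at or under 0.00982 with each library left out in turn. Per length, SLC2A1 was the most abundant glucose transporter in both groups, at 15.6 ± 1.43 RPKM in the sh-NC libraries and 26.0 ± 2.85 RPKM in sh-KLF5. SLC2A3 stood at 0.796 ± 0.208 RPKM in sh-NC, far below SLC2A1 on the same scale. Of the other SLC2A genes, SLC2A6 (GLUT6, a lysosomal carrier) had 12.1 ± 1.64 RPKM in the sh-NC libraries and 16.5 ± 4.60 RPKM in sh-KLF5, and the groups overlapped. SLC2A8 (GLUT8, an intracellular carrier) had 6.38 ± 0.753 RPKM and 8.21 ± 0.181 RPKM, without overlap of the normalized counts but with an adjusted p of 0.0903 from limma. SLC2A10, SLC2A11, SLC2A12 and SLC2A13 had log2 fold changes between -0.12 and 0.18 and did not pass. In all, 5 of the 13 SLC2A genes reached 1 RPKM in every library.

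Among the monocarboxylate transporters, SLC16A6 rose most, SLC16A3 rose by less and SLC16A1 did not pass the test. SLC16A6 encodes MCT7, which has been linked to the export of ketone bodies, and lies on chromosome 17 (68267026 to 68291267, - strand). Its normalized counts were 16.8, 22.7 and 15.9 in the sh-NC libraries and 107, 133 and 108 in sh-KLF5. The lowest sh-KLF5 library lay far above the highest sh-NC library, and the log2 fold change was 2.60 (SE 0.26, adjusted p = 4.38e-06, limma). Its level remained low on the per-length scale, at 0.276 ± 0.0580 RPKM in the sh-NC libraries and 1.75 ± 0.260 RPKM in sh-KLF5. The pseudogene SLC16A6P1 went the other way in reads, with 14, 12 and 2 in the sh-NC libraries and 0, 3 and 0 in sh-KLF5, too few to be tested.

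SLC16A3, the lactate exporter MCT4 of glycolytic cells, had normalized counts of 5681, 5384 and 6171 in the sh-NC libraries and 7271, 8341 and 7233 in sh-KLF5. The groups did not overlap, and the log2 fold change was 0.41 (SE 0.11, adjusted p = 0.0277, limma). With 1 library left out the adjusted p of SLC16A3 ran from 0.00370 to 0.178, and it was above 0.05 without sh-KLF5 library 2 (0.103) and without sh-NC library 1 (0.128), 2 (0.178) or 3 (0.0503). SLC16A1, the widely expressed lactate carrier MCT1, had 4198, 3944 and 4045 normalized counts in the sh-NC libraries and 4625, 3531 and 3796 in sh-KLF5. The sh-KLF5 libraries of SLC16A1 fell on both sides of the sh-NC libraries (log2 fold change -0.04, SE 0.12, adjusted p = 0.886, limma). The SLC16A3 to SLC16A1 ratio of RPKM was 0.799, 0.806 and 0.901 in the sh-NC libraries and 0.928, 1.39 and 1.13 in sh-KLF5. Thus SLC16A1 was the higher of the pair in every sh-NC library, and SLC16A3 in 2 of the 3 sh-KLF5 libraries. Here the means were 0.835 ± 0.0569 and 1.15 ± 0.234 (SD, n = 3), and the ratio was described without a test.

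None of the remaining SLC16A genes tested passed the adjusted p in limma. SLC16A8 (MCT3, the lactate carrier of the retinal pigment epithelium) was at 206 ± 22.1 normalized counts in the sh-NC libraries and at 290 ± 42.5 in sh-KLF5, without overlap and with an adjusted p of 0.0593 from limma. SLC16A13 had 120, 151 and 153 normalized counts in the sh-NC libraries and 188, 215 and 157 in sh-KLF5, also without overlap (adjusted p = 0.175, limma). SLC16A9, a carnitine carrier, had 58.6 ± 5.52 and 35.4 ± 10.1 normalized counts, and SLC16A10, the aromatic amino acid carrier TAT1, had 28.4 ± 3.76 and 16.4 ± 7.97. Both lay lower in every sh-KLF5 library without passing the test, with adjusted p-values from limma of 0.0952 for SLC16A9 and 0.186 for SLC16A10. SLC16A4, SLC16A5 and SLC16A14 overlapped between the groups. SLC16A7 (MCT2, a high-affinity pyruvate and lactate carrier) had 0 reads in each sh-NC library and 4, 3 and 5 reads in sh-KLF5, which was below the filter. On the per-length scale, 7 of the 13 SLC16A genes reached 1 RPKM in every library, led by SLC16A1 with 46.4 ± 1.74 RPKM and SLC16A3 with 38.7 ± 2.06 RPKM in sh-NC.

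**Figure D2:**
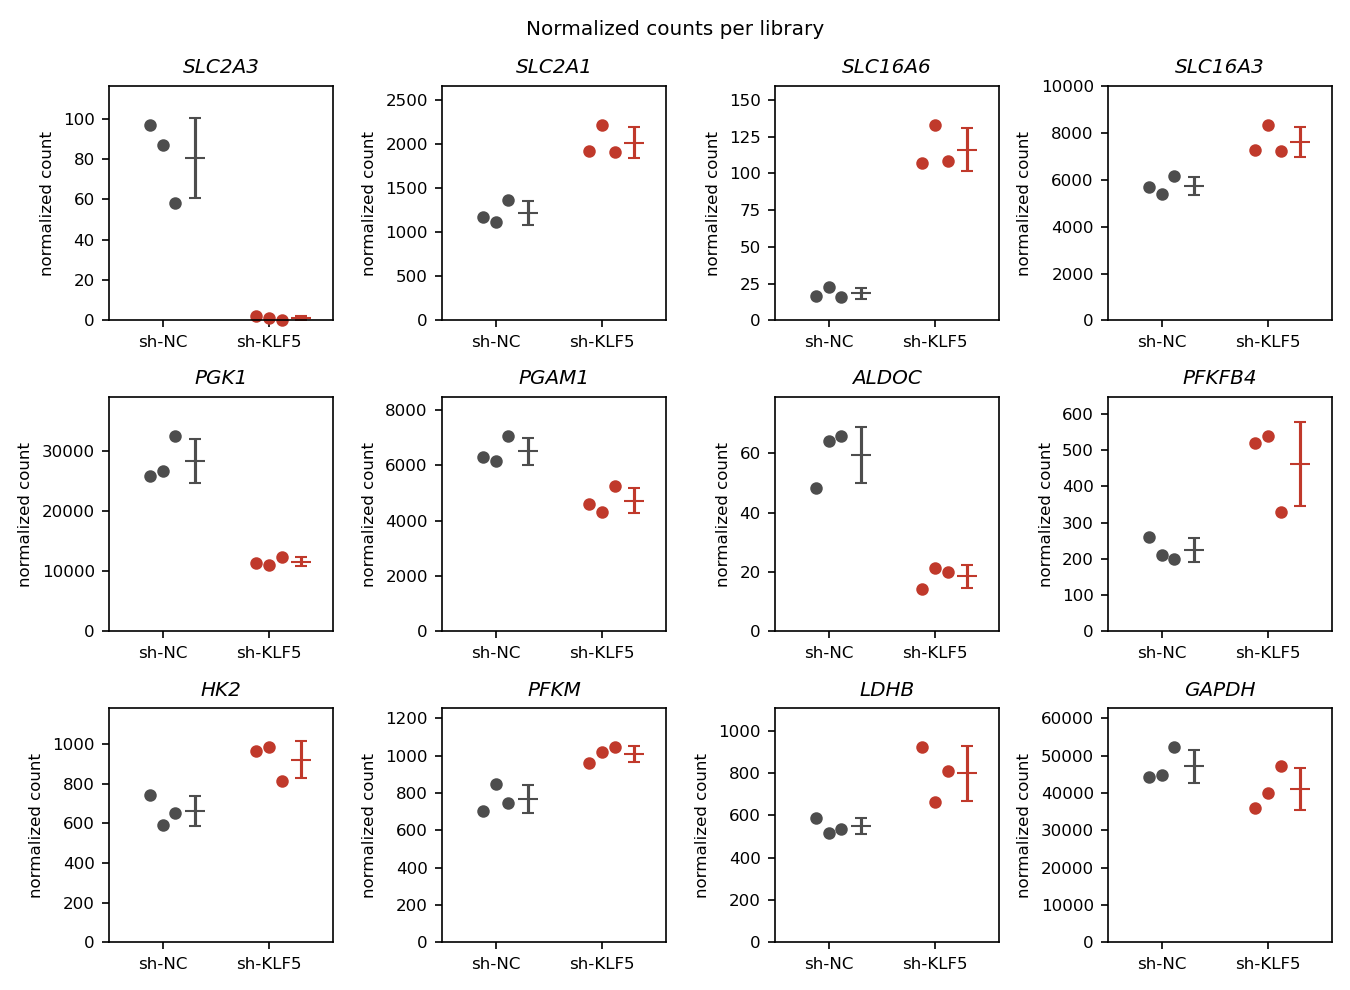
Normalized counts (y axis, from 0) of 12 members in the 3 sh-NC libraries (grey points) and the 3 sh-KLF5 libraries (red points), with the mean and SD of each group beside the points. SLC2A3, PGK1, PGAM1 and ALDOC lie lower and SLC2A1, SLC16A6, SLC16A3, PFKFB4, HK2, PFKM and LDHB higher in sh-KLF5 without overlap, while GAPDH overlaps.

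The entry and commitment steps of glycolysis showed isoenzyme differences of less than 2-fold. HK2, the mitochondria-bound hexokinase of many tumours, had 742, 591 and 653 normalized counts in the sh-NC libraries and 967, 985 and 813 in sh-KLF5. All sh-KLF5 libraries were above all sh-NC libraries (log2 fold change 0.48, SE 0.13, adjusted p = 0.0216, limma). With 1 library left out the adjusted p of HK2 ran from 0.0131 to 0.149, and it was above 0.05 without sh-KLF5 library 2 (0.0879) and without sh-NC library 2 (0.149) or 3 (0.0833). HK1, the ubiquitous hexokinase, had 3187, 3543 and 3651 normalized counts in the sh-NC libraries and 2560, 3538 and 3952 in sh-KLF5. Here sh-KLF5 library 1 was the lowest and library 3 the highest of all 6 (log2 fold change -0.07, adjusted p = 0.814, limma). The HK1 to HK2 ratio of RPKM was 4.14, 5.77 and 5.39 in the sh-NC libraries and 2.55, 3.46 and 4.68 in sh-KLF5. The groups overlapped in this ratio, and HK1 was the more abundant hexokinase in all 6 libraries.

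Of the phosphofructokinase subunits, the muscle-type PFKM had 704, 850 and 748 normalized counts in the sh-NC libraries and 963, 1018 and 1047 in sh-KLF5. The groups did not overlap (log2 fold change 0.40, SE 0.12, adjusted p = 0.0362, limma). This difference, which is under the fold threshold of a call, was the least stable of the members past the adjusted p. With 1 library left out its adjusted p ran from 0.00707 to 0.203 and was under 0.05 only without sh-KLF5 library 1. It was 0.0901 without sh-KLF5 library 2, 0.0899 without library 3, and 0.203, 0.0578 and 0.118 without sh-NC libraries 1, 2 and 3. The liver-type PFKL (log2 fold change -0.19) and the platelet-type PFKP (0.22) overlapped between the groups, and both were more abundant per length than PFKM in sh-NC, with 23.3 ± 1.71 RPKM for PFKL, 26.6 ± 2.05 RPKM for PFKP and 6.36 ± 0.662 RPKM for PFKM. GPI, which isomerizes glucose 6-phosphate to its fructose form, was at 56.6 ± 4.19 RPKM in the sh-NC libraries and 47.4 ± 9.32 RPKM in sh-KLF5, with overlapping groups.

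PFKFB4, a bifunctional kinase and phosphatase that sets the level of the phosphofructokinase activator, rose. Its normalized counts were 261, 211 and 201 in the sh-NC libraries and 519, 539 and 329 in sh-KLF5. The groups were apart, although sh-KLF5 library 3 was nearer to sh-NC than libraries 1 and 2 were (log2 fold change 1.02, SE 0.18, adjusted p = 0.00122, limma). It lies just inside the fold threshold: the log2 fold change was 0.92 without sh-KLF5 library 1, 0.89 without sh-KLF5 library 2, 0.98 without sh-NC library 2 and 0.94 without sh-NC library 3, with adjusted p-values that stayed at or under 0.0178. PFKFB3, its paralog with a high kinase activity, had 422, 403 and 480 normalized counts in the sh-NC libraries and 397, 468 and 451 in sh-KLF5, which overlapped (log2 fold change 0.01, adjusted p = 0.970, limma). PFKFB2, the heart-type paralog, was lower in each sh-KLF5 library at 470 ± 48.0 against 570 ± 23.2 normalized counts and did not pass (adjusted p = 0.170, limma). The order of the paralogs per length thus differed between the groups, with PFKFB3 at 4.31 ± 0.322, PFKFB2 at 3.39 ± 0.168 and PFKFB4 at 2.23 ± 0.344 RPKM in sh-NC, against 4.37 ± 0.402, 2.81 ± 0.311 and 4.63 ± 1.26 RPKM in sh-KLF5. In sh-KLF5, PFKFB4 and PFKFB3 did not differ beyond their spread.

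Below the split of the hexose, ALDOC was called lower. ALDOC, the brain-type aldolase, lies on chromosome 17 (28573115 to 28577264, - strand) and had 48.4, 64.0 and 65.8 normalized counts in the sh-NC libraries and 14.3, 21.3 and 20.1 in sh-KLF5. The highest sh-KLF5 library was below the lowest sh-NC library (log2 fold change -1.63, SE 0.30, adjusted p = 0.00132, limma). It is a low gene, at 1.23 ± 0.188 RPKM in sh-NC, and 10.1% of its exonic bases overlap an antisense gene on the opposite strand. ALDOA, the aldolase of most tissues, was listed at only 125 ± 27.1 normalized counts in the sh-NC libraries and 93.0 ± 19.5 in sh-KLF5, with overlap. In GENCODE release 29, 42.3% of the exonic bases of ALDOA are shared with the same-strand gene AC093512.2, which had 26 to 45 reads per library. Since counting can split or drop reads that fall on both genes, the ALDOA value is uncertain. TPI1, which interconverts the triose phosphates, was at 211 ± 17.3 RPKM in the sh-NC libraries and 184 ± 35.6 RPKM in sh-KLF5, with overlap.

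The largest difference among the abundant enzymes was in PGK1, the kinase that makes the first ATP of the payoff phase. PGK1 lies on chromosome X (77910739 to 78129296, + strand) and had 25769, 26678 and 32430 normalized counts in the sh-NC libraries and 11372, 11026 and 12373 in sh-KLF5. The sh-KLF5 libraries were tightly grouped at 41.0% of the control mean (log2 fold change -1.28, SE 0.12, adjusted p = 2.42e-06, limma). Dropping any single library left the PGK1 log2 fold change within -1.35 to -1.18. Only 1.76% of its exonic bases are shared with a neighbour (ATP7A), and its listed pseudogene had at most 2 reads. Its promoter window, printed with those of ALDOC, PFKFB4 and SLC2A1, held 4 hypoxia-type cores, which were not tested against its fall.

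The steps next to PGK1 differed by much less. GAPDH, the enzyme just before it, had 44397, 44742 and 52302 normalized counts in the sh-NC libraries and 36051, 40002 and 47247 in sh-KLF5. These overlapped, with sh-KLF5 library 3 above 2 of the sh-NC libraries (log2 fold change -0.20, adjusted p = 0.344, limma). PGAM1, the mutase just after it, had 6291, 6138 and 7045 normalized counts in the sh-NC libraries and 4606, 4325 and 5228 in sh-KLF5. The groups did not overlap (log2 fold change -0.46, SE 0.12, adjusted p = 0.0147, limma), but with 1 library left out the adjusted p of PGAM1 ran from 0.00410 to 0.0906 and was above 0.05 without sh-KLF5 library 2 (0.0643) or sh-NC library 1 (0.0590), 2 (0.0536) or 3 (0.0906). ENO1, the main enolase, was at 521 ± 32.0 RPKM in the sh-NC libraries and 481 ± 93.0 RPKM in sh-KLF5, and ENO2, the neuronal enolase, at 2.07 ± 0.408 and 1.67 ± 0.437 RPKM, both with overlap. PKM, pyruvate kinase, had 58883, 61886 and 70921 normalized counts in the sh-NC libraries and 51237, 57954 and 61015 in sh-KLF5, which overlapped (log2 fold change -0.17, adjusted p = 0.407, limma). The PGK1 to GAPDH ratio of RPKM was 0.314, 0.322 and 0.335 in the sh-NC libraries and 0.171, 0.149 and 0.142 in sh-KLF5. In this ratio the libraries within each group lay close together and the groups were far apart. Of the exonic bases of GAPDH, 14.2% overlap an antisense gene (AC006064.4) on the opposite strand. GAPDH pseudogenes took at most 0.459% of the reads on GAPDH and its 18 listed pseudogenes, TPI1 pseudogenes at most 1.94% and PGAM1 pseudogenes at most 1.18%.

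The 22 enzymes together held 1.44%, 1.47% and 1.63% of the reads of the sh-NC libraries and 1.14%, 1.29% and 1.39% of those of the sh-KLF5 libraries. Without PGK1 these shares were 1.28%, 1.30% and 1.43% in the sh-NC libraries and 1.07%, 1.22% and 1.31% in sh-KLF5. The groups did not overlap for the sum with PGK1 and overlapped for the sum without it. By level, GAPDH (958 ± 73.7 RPKM in sh-NC) led the members, followed by ENO1 (521 ± 32.0), PKM (452 ± 36.6), PGK1 (311 ± 34.1), LDHA (248 ± 9.01) and TPI1 (211 ± 17.3). In sh-KLF5, PGK1 stood at 128 ± 4.11 RPKM, below LDHA and TPI1. ENO1 and PKM did not differ beyond their spread in sh-KLF5, where they stood at 481 ± 93.0 and 403 ± 31.9 RPKM.

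**Figure D3:**
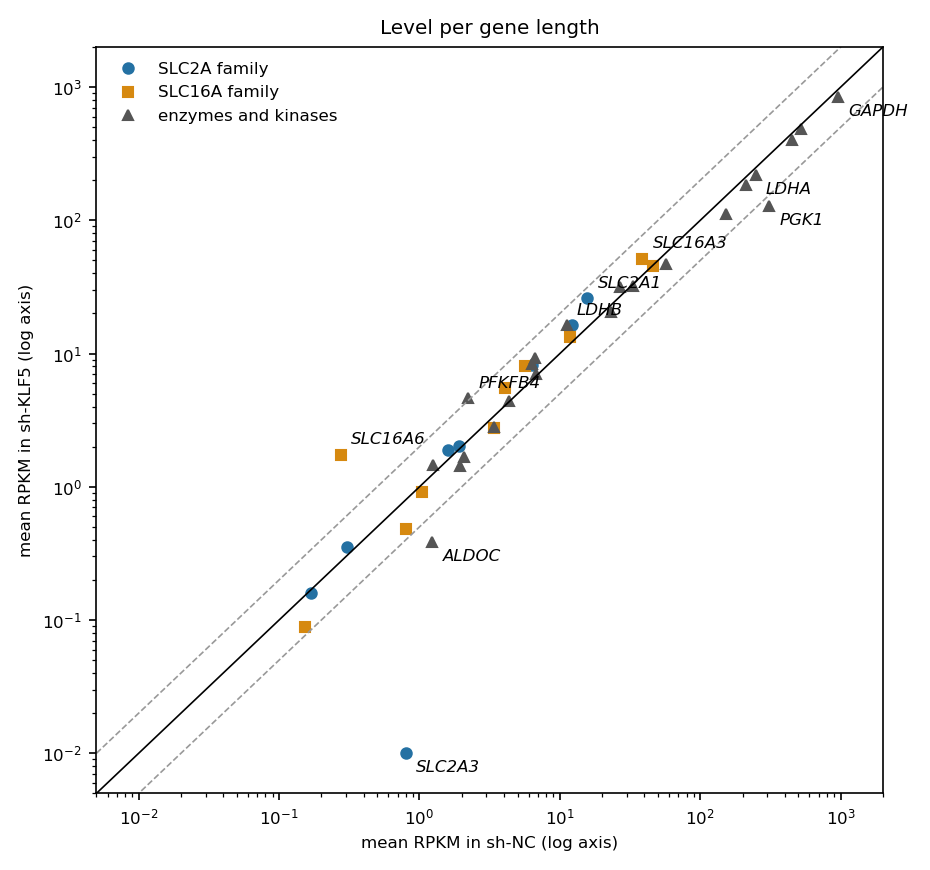
Mean RPKM of the same 40 tested members in sh-NC (x axis) and sh-KLF5 (y axis), both log axes, with the line of equal levels and dashed lines at 2-fold differences. GAPDH (958 and 839 RPKM) and LDHA (248 and 219 RPKM) lie near the line, PGK1 (311 and 128 RPKM), ALDOC and SLC2A3 below the lower dashed line, and SLC16A6 and PFKFB4 above the upper one.

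At the exits of glycolysis, the balance of the lactate dehydrogenase subunits differed between the groups. LDHB, the heart-type subunit, had 590, 518 and 538 normalized counts in the sh-NC libraries and 923, 666 and 810 in sh-KLF5. Every sh-KLF5 library was higher, and the log2 fold change was 0.53 (SE 0.14, adjusted p = 0.0157, limma). For LDHB the adjusted p ran from 0.00767 to 0.0941 with 1 library left out, and was above 0.05 without sh-NC library 2 (0.0941) or 3 (0.0717). In GENCODE release 29, 33.4% of the exonic bases of LDHB are shared with a same-strand gene (AC010197.2), so the LDHB value is uncertain too. LDHA, the muscle-type subunit that dominates in most tumours, had 25847, 24077 and 26161 normalized counts in the sh-NC libraries and 24030.4, 19635 and 23305 in sh-KLF5. These were slightly lower in each sh-KLF5 library and did not pass (log2 fold change -0.19, adjusted p = 0.340, limma). The LDHA to LDHB ratio of RPKM was 21.0, 22.3 and 23.4 in the sh-NC libraries and 12.5, 14.2 and 13.8 in sh-KLF5. The means were 22.2 ± 1.17 and 13.5 ± 0.880 (SD, n = 3), apart by more than the spread, and LDHA was the major subunit throughout. PDK1 and PDK3, kinases that switch off pyruvate dehydrogenase, did not pass. PDK1 had 324, 317 and 284 normalized counts in the sh-NC libraries and 367, 332 and 374 in sh-KLF5, just without overlap (log2 fold change 0.21, adjusted p = 0.351, limma). PDK3 had 542, 608 and 514 normalized counts in the sh-NC libraries and 647, 577 and 496 in sh-KLF5, with overlap (log2 fold change 0.04, adjusted p = 0.878, limma).

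**Figure D4:**
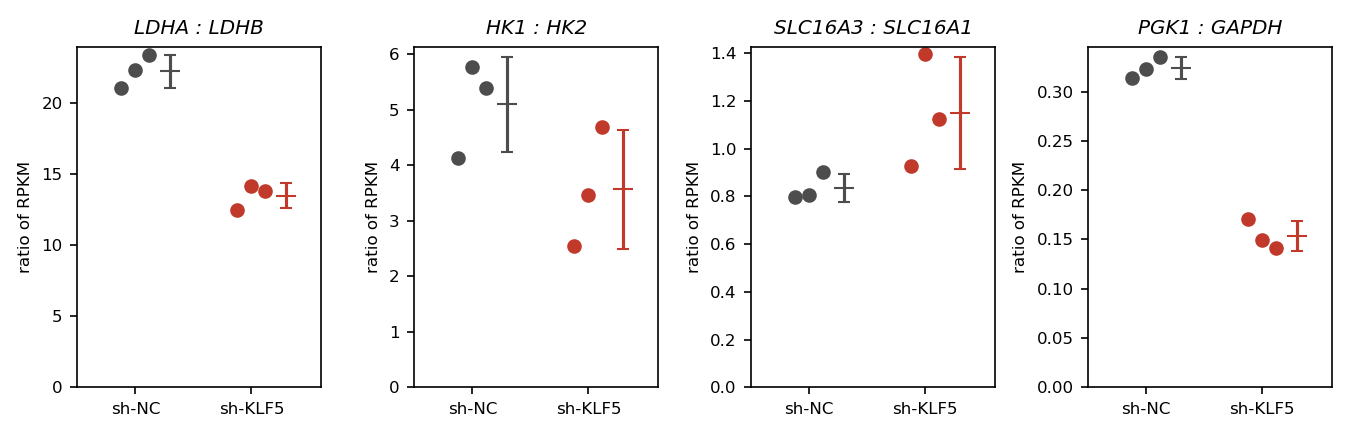
Ratios of RPKM between paired members (y axes, from 0) in each sh-NC (grey) and sh-KLF5 (red) library, with the mean and SD of each group. LDHA to LDHB (22.2 and 13.5 on average) and PGK1 to GAPDH are lower in sh-KLF5 without overlap, SLC16A3 to SLC16A1 is higher without overlap, and HK1 to HK2 overlaps.

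The other genes of the pathway were taken from 8 lists by role, with 94 genes of which 84 were in the table and 67 were tested. None was called higher by limma (0 also at an unadjusted p under 0.05 and by edgeR and DESeq2) and 2 were called lower, and by adjusted p alone 4 were higher and 7 were lower. Over all genes tested, 3.37% were called lower, and 6.04% were higher and 6.85% lower by adjusted p. The share of higher genes in these lists was thus near the background. By adjusted p the share of lower genes was somewhat above it, a difference that was not tested. EMB, which encodes embigin, an ancillary protein that carries monocarboxylate transporters to the membrane, was one of the lower ones. The sh-NC libraries held 255, 184 and 162 EMB reads, against 8, 1 and 1 in sh-KLF5. All sh-KLF5 libraries were far lower (log2 fold change -5.89, SE 0.49, adjusted p = 5.92e-07, limma), and the fitted value depends on the pseudocount. BSG (basigin), the more general partner of MCT1 and MCT4, did not pass (log2 fold change -0.15, adjusted p = 0.451, limma) and was at 8442 normalized counts on average in the sh-NC libraries and 7581 in sh-KLF5. KHK, ketohexokinase of the fructose branch, had 41.0, 48.3 and 38.2 normalized counts in the sh-NC libraries and 12.2, 20.4 and 19.1 in sh-KLF5, which did not overlap (log2 fold change -1.28, SE 0.32, adjusted p = 0.0149, limma). With 1 library left out the adjusted p of KHK ran from 0.0187 to 0.0921 and was above 0.05 without sh-NC library 1 (0.0534) or 2 (0.0921).

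Of the 11 tested genes of pyruvate entry into mitochondria, 2 were higher by adjusted p in limma (background 6.04%) and 1 was lower (background 6.85%), while DESeq2 passed 5 of them and edgeR 3. The lower one, PDPR, the regulatory subunit of pyruvate dehydrogenase phosphatase, fell from 2950 ± 146 to 1865 ± 204 normalized counts (log2 fold change -0.67, adjusted p = 0.000951, limma). The higher ones were DLD, the dihydrolipoamide dehydrogenase of the complex, and PDP1, a phosphatase that activates it. Their log2 fold changes were 0.37 (adjusted p = 0.0427, limma) and 0.49 (adjusted p = 0.0395, limma). The PDP1 groups overlapped, with sh-KLF5 library 3 at 851 normalized counts and sh-NC library 1 at 864. Of the 17 tested genes of glycogen and hexose phosphate branches, PGM1 was higher (background 6.04%) and KHK, PGM2 and GYS1 lower (background 6.85%). PGM1, the main phosphoglucomutase, rose from 1557 ± 63.4 to 2322 ± 129 normalized counts (log2 fold change 0.58, adjusted p = 0.00182, limma), and GYS1, muscle-type glycogen synthase, fell from 2695 ± 146 to 1710.5 ± 219 (log2 fold change -0.66, adjusted p = 0.00127, limma).

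The lists of isoenzymes outside the members and of regulators each had 1 gene past the adjusted p. The lower one was ENO3, the muscle enolase (log2 fold change -0.77, adjusted p = 0.0101, limma), and the higher one was SIRT6, a deacetylase that restrains glycolytic genes (log2 fold change 0.51, adjusted p = 0.0386, limma). None of the 8 tested genes of the pentose phosphate pathway passed in limma by adjusted p. None of the 3 tested genes of the SLC5A transporter list (SLC5A3, SLC5A4 and SLC5A12) or the 4 tested genes of gluconeogenesis passed. The smallest adjusted p-values from limma in these 2 lists were 0.605 for SLC5A4 and 0.232 for G6PC3. SLC5A1 was not listed among the genes measured, and SLC5A2, SLC5A9, SLC5A10 and SLC5A11 had too few reads to be tested. The 3 SLC5A genes tested therefore say nothing on the glucose carriers SLC5A1 and SLC5A2. At an unadjusted p under 0.05, 3 genes of the pentose phosphate list passed in limma and 0 of the other 2 lists, and edgeR and DESeq2 passed 0 in all 3 lists by adjusted p. The share of all genes that passed this unadjusted threshold is not given.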

How the data were processed

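Poly(A) RNA of 3 sh-NC and 3 sh-KLF5 libraries of SKOV3 cells was analysed, grouped by the sample labels. The authors deposited 1 table with a normalized signal per gene and library, that is, each library's read count per gene over its own size factor. Their table also holds log2 fold changes, p-values and group means that the authors had computed, none of which was used. The submitters' processing notes name HISAT2 2.0.5, featureCounts 1.5.0-p3, DESeq2 1.20.0 and the build hg38, without roles. Whether counting used strand is not given in the sources used here. Each library's smallest nonzero value was taken as 1 read, and 100% of the values were then whole numbers (tolerance 1e-06). Totals are given in the report, and they limit the precision of low genes.

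The design took limma 3.58.1 (R 4.3.3) with intensity trend and robust moderation as the test, applied to log2(normalized count + 1), without covariates. Fold changes on this scale understate the change of low genes. The filter was filterByExpr (minimum count 10), which left 15803 genes, and p-values were adjusted by Benjamini-Hochberg over all of them. Calls needed an adjusted p under 0.05 and a log2 fold change beyond 1 in size, a fold threshold that follows the study's methods. On the recovered reads edgeR 4.0.16 called 311 genes higher and 529 lower, and limma 301 and 533. DESeq2 1.42.0, other scalings, pseudocounts and filters, treat, a replicate block and leaving out each library were the alternatives. The limma, edgeR and DESeq2 steps of the full comparison were tested on simulated data. Levels between genes are RPKM, computed from the recovered reads, the library total and the gene length in the table, which for the members is the union of exons in GENCODE release 29. Exon overlaps were taken from the same annotation, and promoter windows and their coordinates from RefSeq on GRCh38.p14.

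The members, the pathway lists and the marker lists were chosen with earlier results of these data known. Genes given library by library were those called, the 6 with the smallest adjusted p, and a fixed set of transporters and isoenzymes, to which PGAM1 and PFKM, past the adjusted p, were added after their values were seen. Pathway genes were named where called or, in a list without a call, for the smallest adjusted p, and DLD, PDP1, PGM1, PGM2, GYS1 and BSG were named after their values were seen. A few genes covered by these rules are not reported here. Columns of per-sample values with no sample numbered 0. Intervals and floors cover counting error only.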

Additional observations from a re-analysis of the deposited data

How the results depend on the processing

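The counts of members called higher (2) and lower (3) were the same with edgeR, DESeq2, TMM factors, library size only and pseudocounts of 0.1 and 5. Without the filter 3 were called higher, and the added one was among the 7 members with few reads. A minimum of 10 reads per library left 2 called lower, since SLC2A3 was then not tested. With limma's treat against a log2 fold change of 1, only 1 member was higher (SLC16A6), 1 lower (SLC2A3) and 1 other pathway gene lower. By unadjusted p, 11 members were higher and 7 lower. Shares over all genes are not given for this looser threshold or for the fits that follow. These counts therefore have no background beside them and are not results about the members. With 1 library left out, 1 to 2 members were called higher and 3 lower, 3 to 10 were higher and 3 to 5 lower by adjusted p, and 1 to 2 other pathway genes were lower. With 10 reads in every library 1 other pathway gene was lower, as EMB was not tested. The KLF5 log2 fold change ran from -1.62 to -1.48. Small fold changes that did not pass turned sign with 1 library left out, namely HK1 (-0.20 to 0.11), PDK3 (-0.047 to 0.14), PFKFB3 (-0.040 to 0.085) and SLC16A1 (-0.15 to 0.045). The adjusted p of PFKM was 0.0514 without the filter (0.0204 to 0.0514 over the settings other than treat and leaving out libraries). The cause of these changes was not tested beyond the tests and libraries they drop. Replicate numbers did not pair the libraries, with correlations of their deviations of 0.059, 0.033 and 0.050. With the replicate block 2 members were called higher and 3 lower, and 8 and 4 passed by adjusted p. Depth limited 7 members with few reads, which were tested only in the fit without the filter.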
